A study of Mus musculus with 9 samples.

Results

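The TNF superfamily ligands and their receptors are the genes through which T cells exchange survival, costimulatory and death signals by contact. They were taken here as every gene symbol that begins with Tnfsf or Tnfrsf and a number, together with Tnf, Lta, Ltb, Ltbr, Fas, Fasl, Cd27, Cd70, Cd40 and Cd40lg. The rule found 42 of the 48709 symbols in the deposited table: 17 ligands, 24 receptors and 1 opposite-strand transcript, Tnfsf13os. The receptors were divided into 5 with a death domain, 15 that bind TRAF adaptors and 4 decoys. No expression value was used in the rule itself.

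The 9 RNA-seq libraries come from mouse CD8+ T cells, which kill cells that display foreign peptides, and form 3 groups of 3. The group CTRL had no OVA peptide, the group OVA was given OVA peptide (a fragment of chicken ovalbumin used as a model antigen), and the group OVA/Citra was given the peptide with citraconate, an unsaturated dicarboxylate related to itaconate. The series asks what citraconate does to transcription in CD8+ T cells and to their stem-like state. No group with citraconate and no peptide was analysed here. For the strain, age, T cell receptor, dose and time, nothing is stated in the sources used here. The labels name the starting material "PAS-T cells" for 8 libraries, without a definition, and OVA-stimulated T cells for OVA/Citra replicate 1. They do not say whether replicates are separate animals or cultures, so a p-value here sets a difference against the spread between libraries, and that spread may be purely technical.

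Ligands of this superfamily are mostly membrane proteins that act as trimers and can be shed as soluble cytokines by metalloproteases. Receptors with a death domain, such as Fas and the TRAIL receptor, recruit adaptors that activate caspases. The other signalling receptors, such as 4-1BB (Tnfrsf9), OX40 (Tnfrsf4), GITR (Tnfrsf18) and CD27, bind TRAF proteins and activate NF-kB and MAP kinases, which support survival and division of T cells after antigen. Decoy receptors bind a ligand without passing on a signal. Many of these genes are induced by T cell receptor signalling in activated CD8+ T cells, while Cd27, Ltb and Cd40lg are familiar from resting or helper T cells.

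Values are in TPM, a share of all transcripts, a scale on which genes can be compared because length is accounted for. Recovered read totals were 14754470 to 17384330 per library. The labelled cell type was checked with 6 CD8+ T cell genes (Cd8a, Cd8b1, Cd3e, Cd3d, Cd3g and Trac): all 6 exceeded 1 TPM, and their summed level was 5147 to 5458 TPM in CTRL, 1309 to 2269 TPM in OVA and 4191 to 4846 TPM in OVA/Citra. Cd4 was at 0.836 to 3.11 TPM in all 9 libraries. OVA replicate 2 stood farthest from its group mean in 20 of the 32 members tested and was the lowest OVA library in 18. CTRL replicate 1 and OVA/Citra replicate 2 stood farthest from their group means in 18 members each. OVA replicate 2 was also the lowest OVA library for all 6 CD8+ T cell genes, as for Cd3e (374 against 521 and 645 TPM). For each natural killer marker below it was the highest OVA library, as for Eomes (229 against 149.5 and 154 TPM). In bulk RNA, fewer cells of a type and less RNA per cell cannot be told apart. Of the lists of other cell types, B cell markers summed to 13.7 to 15.7 TPM in CTRL, 0.501 to 1.145 TPM in OVA and 0 to 0.596 TPM in OVA/Citra, with 2 of 5 reaching 1 TPM in any group. Natural killer markers (4 of 4 reaching 1 TPM) summed to 3.81 to 5.52, 229 to 342 and 92.8 to 131 TPM in the same order. Most of that sum with peptide was Eomes, at 149.5 to 229 TPM in OVA and 72.8 to 101 TPM in OVA/Citra. Ncr1 was at 0 TPM in CTRL, 23.65 to 31.1 TPM in OVA and 3.57 to 5.04 TPM in OVA/Citra. Myeloid and dendritic markers (4 of 8) summed to 14.6 to 18.3, 25.8 to 30.6 and 19.8 to 28.6 TPM in that order. The means of Cd14 and Cd68 were higher in OVA than in CTRL (7.87 against 0.361 and 12.8 against 6.16 TPM). Those of Itgax (5.71 against 6.96 TPM) and Xcr1 (1.55 against 2.74 TPM) were lower. Plasma cell markers (2 of 3, with Tnfrsf17 at 0 in every library) summed to 4.82 to 8.08, 8.27 to 16.1 and 32.4 to 39.96 TPM. Sdc1 was at 0.114 to 0.300 TPM in CTRL, 6.35 to 13.7 TPM in OVA and 32.3 to 39.96 TPM in OVA/Citra, and Jchain, the other one, was at 4.70 to 7.90, 1.765 to 2.41 and 0 to 0.184 TPM. Stromal, endothelial and epithelial markers (1 of 8) summed to 1.98 to 3.0, 28.9 to 41.4 and 14.6 to 18.1 TPM. Most of that sum was Epcam, at 1.44 to 2.62, 28.1 to 40.8 and 13.7 to 17.1 TPM. Krt8, also an epithelial marker, was at 0 in every library. Whether the RNA of these markers came from other cell types was not tested, and a higher sum does not show that such cells were present. Neither was any part of other cell types in the results on TNF superfamily genes tested.

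A gene was tested where its mean reached 1 TPM in any group, which 32 of the 42 members did: 14 ligands and 18 receptors. Of these, 28 reached it in all 3 groups. Cd70, Tnfsf12 and Tnfrsf11b reached it in OVA and OVA/Citra only, and Tnfsf13b in CTRL only, so for these 4 the filter itself favours a difference. Differences are on the log2(TPM + 1) scale, which understates changes of low genes, and are given relative to the median of all 11971 genes tested. That median was -0.08 for OVA against CTRL, 0.12 for OVA/Citra against OVA and 0.04 for OVA/Citra against CTRL. The p-values test the difference before that median is subtracted. The number after ± is the standard error of a log2 difference or the SD of a TPM mean, always with n = 3 per group. A gene was called higher or lower at an adjusted p under 0.05 in limma, with Benjamini-Hochberg adjustment over all genes tested. The 3 comparisons share libraries and are not independent of each other.

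With OVA peptide, members moved in both directions, and with citraconate added most of them were higher than with peptide alone. Against CTRL, 12 of the 32 tested members rose in OVA and 15 fell, where 32.1% of all tested genes rose and 39.8% fell. With citraconate, 22 of 32 were higher than in OVA and 3 were lower (Tnfrsf8, Tnfrsf21 and Tnfrsf10b), where 37.8% of all tested genes were higher and 21.2% lower. Scaling by the median of ratios changed the background of that comparison from 4522 higher and 2543 lower to 3520 higher and 3554 lower, while no called member changed direction. Against CTRL, OVA/Citra had 15 members higher and 7 lower, where 33.1% and 26.3% of all tested genes were. The groups did not overlap for 26, 25 and 24 of the 32 members in these 3 comparisons, where they did not for 75.0%, 66.1% and 67.4% of all tested genes.

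Ligands and receptors were counted apart. Of all tested genes, 32.1% rose and 39.8% fell with OVA, and in OVA/Citra 37.8% were higher than in OVA and 21.2% lower. Of the 14 tested ligands, 6 rose and 6 fell with OVA. In OVA/Citra 11 were higher than in OVA and 0 lower, with a median difference of 1.26, and the other 3 (Lta, Cd40lg and Tnfsf12) did not pass the test. Of the 18 tested receptors, 6 rose and 9 fell with OVA, and in OVA/Citra 11 were higher than in OVA and 3 lower, with a median difference of 0.44. All 5 death domain receptors except Tnfrsf25 were tested: 2 rose and 2 fell with OVA, and the same count of 2 and 2 held for OVA/Citra against OVA. Of 10 tested TRAF-binding receptors 3 rose and 5 fell with OVA, and of 4 decoys 1 rose and 2 fell. In OVA/Citra against OVA, 6 of the TRAF-binding receptors were higher and 1 lower, and 3 decoys were higher and 0 lower. Against CTRL, OVA/Citra had 8 ligands higher and 4 lower, with a median difference of 0.79. It had 7 receptors higher and 3 lower, with a median of 0.09, where 33.1% and 26.3% of all tested genes were.

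Summed over members, ligand RNA was lowest in OVA, and receptor RNA was lowest in CTRL; these sums were not tested. Ligands summed to 690.2, 728 and 720.1 TPM in CTRL, 267, 191 and 318 TPM in OVA, and 643, 593 and 619 TPM in OVA/Citra. Ltb made up 65.1% to 70.4% of that sum in CTRL and 28.0% to 40.4% in OVA/Citra, whereas in OVA Lta was the most abundant ligand with 26.0% to 30.3%. Receptors summed to 1106, 1033 and 1037 TPM in CTRL, 1990, 2231 and 2052 TPM in OVA, and 2402, 2543 and 2427 TPM in OVA/Citra. Tnfrsf9 was the most abundant receptor in all 9 libraries, at 28.0% to 30.3% of the sum in CTRL, 65.6% to 72.4% in OVA and 55.1% to 60.2% in OVA/Citra.

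Promoter sequence of 4 members is shown because their RNA took 4 different courses over the groups: Tnfrsf9 rose with OVA and was not called different with citraconate, Tnfrsf8 rose with OVA and was lower with citraconate, Tnfsf10 was highest with citraconate, and Ltb fell with OVA and was higher again with citraconate. Each line holds the 250 bases before a RefSeq transcription start of build GRCm38.p6, 5′ to 3′ on the gene's strand, an older build than the GRCm39 named in the submitters' processing notes. The windows are chr4:150927749-150927998 (plus strand, second of the Tnfrsf9 starts), chr4:145315165-145315414 (minus strand, Tnfrsf8), chr3:27316827-27317076 (plus strand, Tnfsf10) and chr17:35194257-35194506 (plus strand, Ltb). Capitals mark matches to any of the motifs searched on both strands.
Tnfrsf9: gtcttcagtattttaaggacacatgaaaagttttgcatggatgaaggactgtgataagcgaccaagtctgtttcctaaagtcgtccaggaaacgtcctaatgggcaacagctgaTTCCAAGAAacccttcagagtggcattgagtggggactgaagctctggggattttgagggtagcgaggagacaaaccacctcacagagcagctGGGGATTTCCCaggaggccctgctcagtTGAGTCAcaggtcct
Tnfrsf8: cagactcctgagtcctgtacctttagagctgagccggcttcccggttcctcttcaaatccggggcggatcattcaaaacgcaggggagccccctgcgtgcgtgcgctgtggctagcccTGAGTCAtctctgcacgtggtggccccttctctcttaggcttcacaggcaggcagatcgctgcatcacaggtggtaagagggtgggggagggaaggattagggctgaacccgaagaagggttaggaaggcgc
Tnfsf10: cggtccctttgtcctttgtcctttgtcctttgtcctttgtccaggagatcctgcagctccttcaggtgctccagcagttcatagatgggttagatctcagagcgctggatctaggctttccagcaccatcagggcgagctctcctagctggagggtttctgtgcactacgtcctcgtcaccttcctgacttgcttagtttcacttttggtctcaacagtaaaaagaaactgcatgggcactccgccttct
Ltb: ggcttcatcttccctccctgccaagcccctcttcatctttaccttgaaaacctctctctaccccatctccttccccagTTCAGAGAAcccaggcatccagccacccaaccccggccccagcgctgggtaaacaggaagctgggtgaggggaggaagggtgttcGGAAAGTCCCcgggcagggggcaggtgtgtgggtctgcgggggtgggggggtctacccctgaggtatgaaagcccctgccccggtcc
The motifs were the AP-1 site TGANTCA, 2 forms of the NF-kB site, which can overlap (GGG, any 2 bases and TTTCC, or GGG, any 2 bases and TTCCC), the interferon response element (GAAA, any 2 bases and GAAA), and the GAS element TTCNNNGAA bound by STAT factors. The Tnfrsf9 window holds an AP-1 match 15 bases before the start, overlapping matches to both NF-kB forms at 43 and 42 bases, and a GAS match at 136 bases. The window of the other Tnfrsf9 start holds none of the 5 motifs. An AP-1 match lies 132 bases before the Tnfrsf8 start. The Ltb window holds an NF-kB match at 87 bases and a GAS match at 172 bases, and the Tnfsf10 window holds no match. The RefSeq table holds 35 windows for 31 members. For 30 of them, including those shown, bases just after the start were found in a reference transcript of the gene. Of all 35 windows, 6 had an AP-1 match (17.1%, against 6.75% of all 32851 promoters), 3 the first NF-kB form (8.57%, against 1.41%), 2 the second (5.71%, against 1.53%), 4 the interferon element (11.4%, against 2.98%) and 8 the GAS element (22.9%, against 7.02%). A match describes the letters and is not evidence of binding.

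Among the ligands that can kill target cells, Tnfsf10 and Fasl were both highest in OVA/Citra. Tnfsf10 encodes TRAIL, a ligand of death receptors. It was at 12.7, 14.9 and 14.2 TPM in CTRL, 21.6, 13.3 and 27.5 TPM in OVA, and 85.5, 85.4 and 81.0 TPM in OVA/Citra, so that all 3 OVA/Citra libraries lay above every other library while CTRL and OVA overlapped. Its mean in OVA/Citra was 4.04 times that in OVA (log2 1.90 ± 0.20, adjusted p = 2.79e-05) and 6.03 times that in CTRL (log2 2.47 ± 0.20, adjusted p = 3.20e-06). The rise with OVA alone was small (log2 0.57 ± 0.20, adjusted p = 0.0446) and was not called when OVA replicate 3 (adjusted p = 0.158), or any other single library except OVA replicate 2, was left out, or with no filter (adjusted p = 0.0866).

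Fasl, the ligand that triggers Fas on target cells, followed the same order. Its level was 16.1, 20.3 and 22.1 TPM in CTRL, 20.7, 30.4 and 26.7 TPM in OVA, and 48.6, 43.2 and 45.8 TPM in OVA/Citra. OVA/Citra was above OVA in all libraries (log2 0.69 ± 0.14, adjusted p = 0.000729) and above CTRL (log2 1.16 ± 0.14, adjusted p = 5.17e-05). OVA overlapped with CTRL, and the call between them (log2 0.47 ± 0.14, adjusted p = 0.0304) was lost without CTRL replicate 1 (adjusted p = 0.121), OVA replicate 2 (adjusted p = 0.103) or OVA replicate 3 (adjusted p = 0.073), and with no filter on low values (adjusted p = 0.0587).

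Tnf, the inflammatory cytokine that gives the family its name, varied less between the groups. It measured 27.5, 24 and 23.3 TPM in CTRL, 20.6, 17.9 and 24.2 TPM in OVA, and 34.5, 41.4 and 28.4 TPM in OVA/Citra. The OVA/Citra libraries were the 3 highest, and exceeded OVA (log2 0.58 ± 0.14, adjusted p = 0.00172). Against CTRL the difference was 1.40-fold (log2 0.41 ± 0.14, adjusted p = 0.0184) and was not called without CTRL replicate 2, CTRL replicate 3 or OVA/Citra replicate 2 (adjusted p = 0.056, 0.065 and 0.069). The value for OVA against CTRL did not pass the test (log2 -0.17 ± 0.14, adjusted p = 0.13), though it did as a fall without OVA replicate 3 (adjusted p = 0.0468).

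The costimulatory ligands included the largest fitted increase of any tested member. Tnfsf4 encodes OX40 ligand, best known on antigen-presenting cells and also made by activated T cells. Its level was 1.59, 1.42 and 1.41 TPM in CTRL, 17.0, 8.73 and 24.2 TPM in OVA, and 43.6, 51.6 and 54.1 TPM in OVA/Citra, with 3 groups that did not overlap. It rose 11.3-fold with OVA (log2 2.81 ± 0.27, adjusted p = 8.32e-06), and OVA/Citra was higher than OVA again by 2.995-fold (log2 1.502 ± 0.27, adjusted p = 0.000563). The mean of OVA/Citra, 49.8 ± 5.53 TPM, was 33.8 times that of CTRL, 1.47 ± 0.104 TPM (log2 4.32 ± 0.27, adjusted p = 7.29e-07).

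Cd70, the ligand of CD27, went from almost no reads to a low level. It had 1, 0 and 0 reads in CTRL, 19, 4 and 22 in OVA, and 39, 58 and 63 in OVA/Citra. These correspond to 0.205, 0 and 0 TPM in CTRL, 3.46, 0.741 and 3.78 TPM in OVA, and 7.71, 11.6 and 11.6 TPM in OVA/Citra, with no overlap between the groups. Cd70 rose with OVA (adjusted p = 0.00131) and was higher again in OVA/Citra (log2 1.62 ± 0.34, adjusted p = 0.00144). Because CTRL held 1 read, its ratio is imprecise: as a share of all reads OVA was 44.0-fold above CTRL, with a 95% exact counting interval of 7.5 to 1770, and OVA/Citra 166-fold, with 29.4 to 6600. These intervals cover counting error only.

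Tnfsf11 encodes RANKL, a ligand of RANK that T cells make after activation. It was at 5.18, 5.47 and 2.77 TPM in CTRL, 9.04, 6.70 and 17.3 TPM in OVA, and 33.4, 36.5 and 35.0 TPM in OVA/Citra. Each OVA/Citra library was above each OVA library, and each OVA library above each CTRL library. It rose with OVA (log2 1.15 ± 0.29, adjusted p = 0.00692), was higher with citraconate (log2 1.56 ± 0.29, adjusted p = 0.00071) and reached 7.81 times its CTRL mean (log2 2.72 ± 0.29, adjusted p = 2.42e-05).

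Tnfsf8, CD30 ligand, differed from these in its response to OVA. It was at 16.5, 12.7 and 14.2 TPM in CTRL, 7.36, 3.53 and 17.1 TPM in OVA, and 39.3, 31.0 and 38.7 TPM in OVA/Citra. OVA replicate 3 lay above every CTRL library, and OVA replicates 1 and 2 below all of them. OVA against CTRL was not called (log2 -0.73 ± 0.38, adjusted p = 0.0818); without OVA replicate 3 a fall was (adjusted p = 0.00055). OVA/Citra was above both groups, 3.89 times OVA (log2 1.95 ± 0.38, adjusted p = 0.00108) and 2.51 times CTRL (log2 1.23 ± 0.38, adjusted p = 0.0159). The second of these was not called without CTRL replicate 2 (adjusted p = 0.0511).

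Tnfsf9 and Tnfsf14 fell with OVA and were higher with citraconate. Tnfsf9, 4-1BB ligand, is known mostly from antigen-presenting cells. It measured 4.64, 5.04 and 5.51 TPM in CTRL, 1.99, 2.41 and 2.59 TPM in OVA, and 7.04, 5.07 and 9.18 TPM in OVA/Citra. The fall (log2 -0.79 ± 0.17, adjusted p = 0.0011) and the increase with citraconate (log2 1.13 ± 0.17, adjusted p = 0.000181) both held without overlap, while OVA/Citra overlapped with CTRL (log2 0.35 ± 0.17, adjusted p = 0.0766). Without OVA/Citra replicate 2, Tnfsf9 was called higher in OVA/Citra than in CTRL (adjusted p = 0.00765). Tnfsf14, or LIGHT, binds HVEM and the lymphotoxin beta receptor. It was at 6.88, 9.22 and 8.15 TPM in CTRL, 4.28, 1.51 and 4.82 TPM in OVA, and 10.1, 11.1 and 12.3 TPM in OVA/Citra. It fell with OVA (log2 -1.01 ± 0.27, adjusted p = 0.0042) and was higher with citraconate (log2 1.39 ± 0.27, adjusted p = 0.000842), where all libraries were above those of CTRL without passing the test (log2 0.39 ± 0.27, adjusted p = 0.195). That difference was called without OVA replicate 2 (adjusted p = 0.00983).

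Lymphotoxins were the most abundant ligands of CTRL cells. Ltb encodes lymphotoxin beta, the membrane partner of lymphotoxin alpha. It was at 449, 477 and 507 TPM in CTRL, 76.3, 45.8 and 81.5 TPM in OVA, and 259.8, 166 and 228 TPM in OVA/Citra, so the 3 groups were fully apart. It fell to 0.142 of CTRL with OVA (log2 -2.76 ± 0.21, adjusted p = 1.10e-06). With citraconate it was 3.21 times the level with OVA (log2 1.56 ± 0.21, adjusted p = 9.88e-05) but still 0.457 of CTRL (log2 -1.19 ± 0.21, adjusted p = 0.000933). Lta, lymphotoxin alpha, was not called higher with citraconate. It was at 119, 133 and 97.2 TPM in CTRL, 80.9, 57.2 and 82.8 TPM in OVA, and 66.6, 104 and 69.8 TPM in OVA/Citra. In OVA it fell (log2 -0.58 ± 0.19, adjusted p = 0.01), and OVA/Citra overlapped with OVA (log2 -0.01 ± 0.19, adjusted p = 0.643, with a 95% interval of -0.44 to 0.41). Lta was also lower in OVA/Citra than in CTRL (log2 -0.59 ± 0.19, adjusted p = 0.0293), a call lost without CTRL replicate 1 or 2 or OVA/Citra replicate 1 or 3 (adjusted p = 0.0764 to 0.105) and with no filter (adjusted p = 0.063).

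Cd40lg, the helper ligand that activates CD40 on B cells and dendritic cells, had the largest fall of the tested members. Its level was 29.6, 24.2 and 23.1 TPM in CTRL, 1.47, 0.624 and 1.85 TPM in OVA, and 1.998, 1.75 and 1.86 TPM in OVA/Citra. The lowest CTRL library had 23.1 TPM and the highest of the other 6 had 1.998 TPM. The fall in OVA was to 0.0513 of CTRL (log2 -3.48 ± 0.19, adjusted p = 1.56e-07), and OVA/Citra was at 0.0730 of CTRL (log2 -3.25 ± 0.19, adjusted p = 5.24e-07). OVA/Citra and OVA overlapped and were not called different (log2 0.22 ± 0.19, adjusted p = 0.138, with a 95% interval of -0.20 to 0.65); without OVA replicate 3, OVA/Citra was called higher (adjusted p = 0.0331). Cd4, a marker of the helper cells that are the main source of CD40 ligand, averaged 2.62, 1.27 and 1.02 TPM in CTRL, OVA and OVA/Citra, and its part in the fall was not tested.

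The other tested ligands were scarce. Tnfsf12, or TWEAK, had no reads in CTRL, 23, 17 and 39 reads in OVA, and 41, 37 and 25 in OVA/Citra. Set against a floor of 3 reads over the CTRL group, it was at least 24.6-fold higher in OVA and at least 35.3-fold higher in OVA/Citra. These bounds leave out counting error in OVA and OVA/Citra. Both differences were called (adjusted p = 3.25e-05 and adjusted p = 1.51e-05). OVA/Citra against OVA was not called (log2 0.28 ± 0.22, adjusted p = 0.133) but was called higher without OVA replicate 3 (adjusted p = 0.0245) or OVA/Citra replicate 3 (adjusted p = 0.0415). It lies beside Tnfsf13, or APRIL, a read-through transcript of both is listed as a separate row, and how their shared reads were divided is uncertain. Tnfsf13b, the B cell survival factor BAFF, was at 1.01 to 1.46 TPM in CTRL, 0.0421 to 0.182 TPM in OVA and 0.412 to 0.518 TPM in OVA/Citra. It fell in OVA (log2 -0.93 ± 0.14, adjusted p = 8.07e-05) and was lower in OVA/Citra than in CTRL (log2 -0.66 ± 0.14, adjusted p = 0.00284). Its difference between OVA/Citra and OVA (log2 0.26 ± 0.14, adjusted p = 0.0347) was not called without any 1 of the 6 libraries of these groups (adjusted p = 0.0547 to 0.102).

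**Figure D1:**
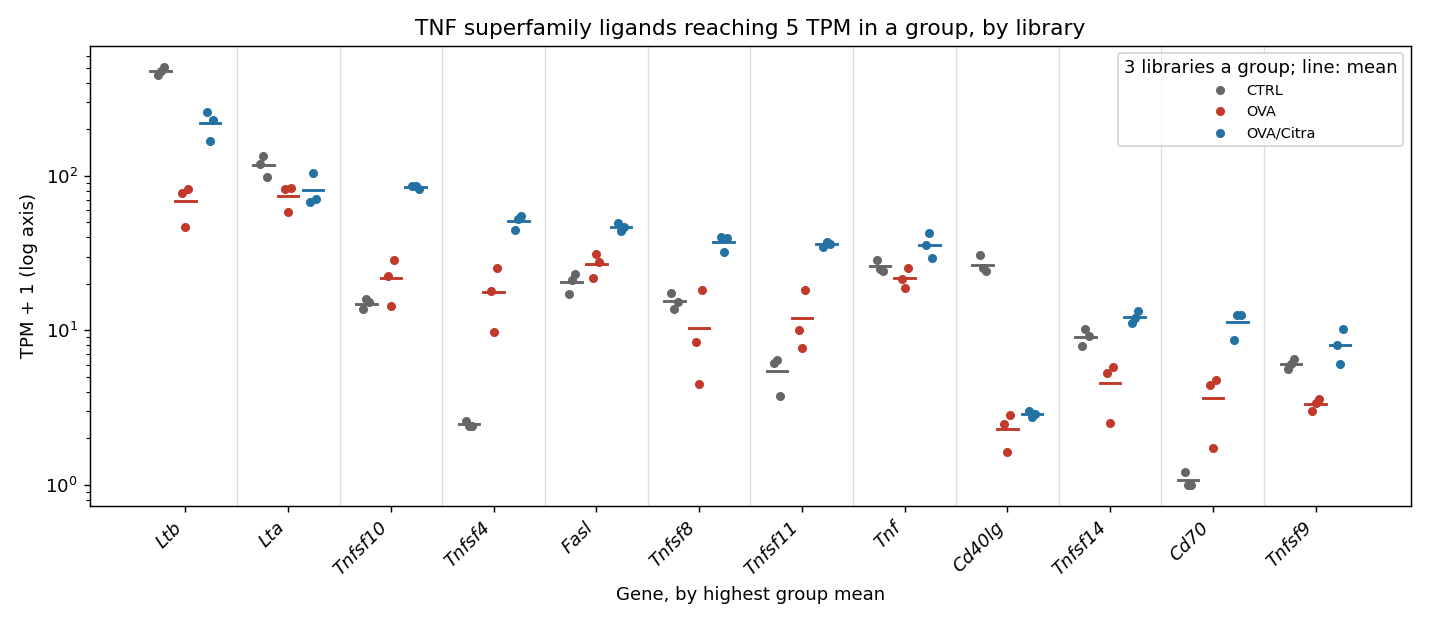
Level of the ligands that reached a mean of 5 TPM in a group, as TPM + 1 on a log axis, with 1 point per library and a line at the mean, for CTRL, OVA and OVA/Citra. The OVA/Citra points of Tnfsf10, Fasl, Tnfsf4, Tnfsf11 and Tnfsf8 lie above all other points, those of Ltb lie between the groups, and those of Cd40lg lie with OVA.

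Of the receptors that bind TRAF adaptors, Tnfrsf9 was the most abundant. It encodes 4-1BB, a costimulatory receptor induced by antigen. Its level was 336, 298 and 290.4 TPM in CTRL, 1353, 1616 and 1345 TPM in OVA, and 1323, 1530 and 1349 TPM in OVA/Citra. The lowest of the 6 libraries with peptide was at 1323 TPM, and the highest CTRL library at 336 TPM. It rose 4.67-fold with OVA (log2 2.29 ± 0.09, adjusted p = 2.55e-08) and was 4.55-fold above CTRL in OVA/Citra (log2 2.14 ± 0.09, adjusted p = 4.61e-08). OVA/Citra against OVA was not called (log2 -0.16 ± 0.09, adjusted p = 0.744), with a 95% interval of -0.36 to 0.04.

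Tnfrsf4, which encodes OX40, the receptor of Tnfsf4, was highest with citraconate. It was at 92.9, 79.9 and 74.5 TPM in CTRL, 96.3, 49.1 and 141 TPM in OVA, and 313, 288 and 308 TPM in OVA/Citra. The lowest OVA/Citra library was at 288 TPM, and CTRL and OVA overlapped within 49.1 to 141 TPM. OVA/Citra was 3.18 times OVA (log2 1.66 ± 0.29, adjusted p = 0.000472) and 3.68 times CTRL (log2 1.83 ± 0.29, adjusted p = 0.000312). OVA against CTRL was not called (log2 0.17 ± 0.29, adjusted p = 0.794), while without OVA replicate 2, its lowest library, a rise was (adjusted p = 0.00916).

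Tnfrsf18, GITR, lies next to Tnfrsf4 and took another course. It was at 279, 274 and 288 TPM in CTRL, 116, 77.6 and 135 TPM in OVA, and 309, 288 and 305 TPM in OVA/Citra. OVA was below all other libraries, and OVA/Citra overlapped with CTRL. It fell with OVA (log2 -1.31 ± 0.16, adjusted p = 2.06e-05), was higher with citraconate (log2 1.36 ± 0.16, adjusted p = 4.17e-05) and was not called different between OVA/Citra and CTRL (log2 0.06 ± 0.16, adjusted p = 0.605; 95% interval -0.29 to 0.41).

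Cd27, a costimulatory receptor of resting and memory T cells, also fell with OVA. It was at 123, 127 and 133 TPM in CTRL, 69.4, 36.5 and 86.6 TPM in OVA, and 227, 169 and 224 TPM in OVA/Citra, and the 3 groups did not overlap. The fall was to 0.502 of CTRL (log2 -0.99 ± 0.25, adjusted p = 0.00321), and OVA/Citra was 3.22 times OVA (log2 1.62 ± 0.25, adjusted p = 0.000243). OVA/Citra was also above CTRL (log2 0.64 ± 0.25, adjusted p = 0.0402), but this call was lost when any CTRL library, OVA/Citra replicate 1 or OVA/Citra replicate 3 was left out (adjusted p = 0.0788 to 0.111), and with no filter on low values (adjusted p = 0.0833).

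Tnfrsf8, CD30, was higher in OVA than in both other groups. Its level was 54.1, 40.2 and 35.4 TPM in CTRL, 177, 263 and 167 TPM in OVA, and 23.3, 51.0 and 22.2 TPM in OVA/Citra. The OVA libraries were the 3 highest, and OVA/Citra replicate 2 was the highest of its group. It rose 4.67-fold with OVA (log2 2.27 ± 0.30, adjusted p = 7.96e-05) and in OVA/Citra was at 0.159 of OVA (log2 -2.81 ± 0.30, adjusted p = 5.42e-05). OVA/Citra overlapped with CTRL (log2 -0.54 ± 0.30, adjusted p = 0.175), and was called lower than CTRL without OVA/Citra replicate 2 (adjusted p = 0.00651).

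Tnfrsf13b and Tnfrsf13c encode TACI and the BAFF receptor, which are best known on B cells. Tnfrsf13b was at 33.1, 30.9 and 31.0 TPM in CTRL, 9.45, 5.72 and 8.92 TPM in OVA, and 26.2, 23.1 and 27.8 TPM in OVA/Citra. In OVA it fell (log2 -1.80 ± 0.15, adjusted p = 1.72e-06) and was higher with citraconate (log2 1.46 ± 0.15, adjusted p = 2.34e-05), just below the CTRL libraries. Between OVA/Citra and CTRL it was not called (log2 -0.33 ± 0.15, adjusted p = 0.114), and was called lower without OVA replicate 2 (adjusted p = 0.00846) and with recovered reads (adjusted p = 0.0479). Tnfrsf13c was at 9.42, 8.25 and 7.73 TPM in CTRL, 1.82, 2.01 and 1.79 TPM in OVA, and 2.64, 2.34 and 3.76 TPM in OVA/Citra. It fell with OVA (log2 -1.64 ± 0.14, adjusted p = 2.30e-06) and was lower in OVA/Citra than in CTRL as well (log2 -1.33 ± 0.14, adjusted p = 3.25e-05). The difference between OVA/Citra and OVA (log2 0.30 ± 0.14, adjusted p = 0.0241) was lost under the median of ratios (adjusted p = 0.0529), with recovered reads (adjusted p = 0.0747) and without OVA replicate 1, OVA replicate 3 or OVA/Citra replicate 3 (adjusted p = 0.0566 to 0.0893). B cell markers were also lower with peptide: Cd79b was at 9.78, 12.1 and 13.8 TPM in CTRL and at or below 0.982 TPM in the other 6 libraries, and Ms4a1 was at 0 in all 3 OVA/Citra libraries. Their part in the levels of Tnfrsf13b and Tnfrsf13c was not tested.

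The other TRAF-binding receptors changed less. Tnfrsf1b, the second TNF receptor, was at 72.3, 74.5 and 75.3 TPM in CTRL, 95.1, 97.9 and 88.8 TPM in OVA, and 83.0, 89.7 and 84.2 TPM in OVA/Citra. It rose with OVA (log2 0.42 ± 0.05, adjusted p = 0.000242) and was above CTRL in OVA/Citra (log2 0.17 ± 0.05, adjusted p = 0.00743), the second of which was lost under the median of ratios (adjusted p = 0.0573). OVA/Citra against OVA was not called (log2 -0.26 ± 0.05, adjusted p = 0.0575) but was called lower under the median of ratios (adjusted p = 0.00725), with recovered reads (adjusted p = 0.0409) and without OVA replicate 3 (adjusted p = 0.0251) or OVA/Citra replicate 2 (adjusted p = 0.0325). Tnfrsf14, the LIGHT receptor HVEM, was at 23.6, 24.5 and 23.6 TPM in CTRL, 13.4, 14.7 and 16.1 TPM in OVA, and 23.9, 21.4 and 24.04 TPM in OVA/Citra. In OVA it fell (log2 -0.59 ± 0.08, adjusted p = 3.34e-05), was higher with citraconate (log2 0.49 ± 0.08, adjusted p = 0.000128) and overlapped with CTRL there (log2 -0.09 ± 0.08, adjusted p = 0.63). Tnfrsf12a, the TWEAK receptor, was at 1.58 to 3.37 TPM in all 9 libraries and was called in none of the comparisons (adjusted p = 0.258, 0.59 and 0.596).

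Among the death domain receptors, Fas and Tnfrsf1a fell with OVA, and Tnfrsf10b and Tnfrsf21 rose. Fas, the receptor of Fas ligand, was at 16.7, 15.0 and 15.4 TPM in CTRL, 2.38, 1.21 and 3.13 TPM in OVA, and 7.86, 6.65 and 8.50 TPM in OVA/Citra, and the groups did not overlap. It fell to 0.143 of CTRL (log2 -2.33 ± 0.20, adjusted p = 2.07e-06), and OVA/Citra was 3.42 times OVA (log2 1.34 ± 0.20, adjusted p = 0.000156) and 0.488 of CTRL (log2 -0.99 ± 0.20, adjusted p = 0.00195). Tnfrsf1a, the first TNF receptor, was at 21.3, 18.8 and 17.8 TPM in CTRL, 10.9, 12.8 and 10.8 TPM in OVA, and 15.9, 16.5 and 17.8 TPM in OVA/Citra. It fell with OVA (log2 -0.62 ± 0.09, adjusted p = 6.91e-05) and was higher with citraconate (log2 0.38 ± 0.09, adjusted p = 0.00107), without a call between OVA/Citra and CTRL (log2 -0.23 ± 0.09, adjusted p = 0.0963); under the median of ratios OVA/Citra was called lower (adjusted p = 0.0467).

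Tnfrsf10b is the mouse TRAIL receptor that signals death. It was at 5.89, 6.69 and 5.82 TPM in CTRL, 14.0, 14.8 and 14.9 TPM in OVA, and 10.8, 11.9 and 9.56 TPM in OVA/Citra, with OVA highest and CTRL lowest in every library. It rose 2.37-fold with OVA (log2 1.20 ± 0.09, adjusted p = 2.60e-06), was lower with citraconate than with OVA (log2 -0.53 ± 0.09, adjusted p = 0.00394) and was above CTRL there (log2 0.68 ± 0.09, adjusted p = 0.000113). Tnfrsf21, death receptor 6, was at 3.53, 4.19 and 3.34 TPM in CTRL, 15.6, 22.8 and 16.0 TPM in OVA, and 3.67, 5.21 and 4.31 TPM in OVA/Citra. It rose 4.93-fold with OVA (log2 2.09 ± 0.16, adjusted p = 1.65e-06) and in OVA/Citra was at 0.242 of OVA (log2 -1.94 ± 0.16, adjusted p = 1.73e-05), where it overlapped with CTRL (log2 0.16 ± 0.16, adjusted p = 0.305). Like Tnfrsf8, it was above both other groups in all 3 OVA libraries.

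Of the 4 decoys, Tnfrsf22, Tnfrsf23 and Tnfrsf26 are neighbouring mouse genes of similar sequence, so the division of reads between them is uncertain. Tnfrsf22, a TRAIL decoy, was at 10.8, 9.64 and 10.7 TPM in CTRL, 3.74, 2.89 and 3.77 TPM in OVA, and 10.1, 10.8 and 10.1 TPM in OVA/Citra. OVA was lowest (log2 -1.28 ± 0.10, adjusted p = 1.35e-06), and OVA/Citra was above it (log2 1.23 ± 0.10, adjusted p = 9.32e-06) and overlapped with CTRL (log2 -0.04 ± 0.10, adjusted p = 0.963). Tnfrsf26 was counted with the decoys as a receptor without a death domain, and no ligand was assigned to it here. It was at 20.1, 16.8 and 17.9 TPM in CTRL, 2.33, 2.18 and 2.43 TPM in OVA, and 10.8, 8.33 and 11.9 TPM in OVA/Citra. It fell to 0.127 of CTRL (log2 -2.46 ± 0.12, adjusted p = 8.62e-08), was 4.46 times as high with citraconate (log2 1.64 ± 0.12, adjusted p = 7.21e-06), and was below CTRL there (log2 -0.81 ± 0.12, adjusted p = 0.000407). Tnfrsf23, the other TRAIL decoy, took another order.

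Tnfrsf23 was at 1.70, 1.80 and 2.19 TPM in CTRL, 2.92, 2.65 and 2.54 TPM in OVA, and 5.01, 8.19 and 5.63 TPM in OVA/Citra. OVA/Citra was above both OVA (log2 0.83 ± 0.16, adjusted p = 0.000567) and CTRL (log2 1.27 ± 0.16, adjusted p = 6.30e-05). OVA against CTRL did not pass the test (log2 0.43 ± 0.16, adjusted p = 0.0641) although the libraries did not overlap. It passed as a rise under the median of ratios (adjusted p = 0.0429), with a pseudocount of 0.1 (adjusted p = 0.0433) and without OVA/Citra replicate 2 (adjusted p = 0.0193). Tnfrsf11b, osteoprotegerin, is a secreted decoy that binds RANKL and TRAIL. It was at 0.736, 0.637 and 0.870 TPM in CTRL, 4.51, 5.76 and 4.05 TPM in OVA, and 5.20, 9.63 and 6.26 TPM in OVA/Citra. It rose with OVA (log2 1.79 ± 0.19, adjusted p = 2.03e-05) and was above CTRL in OVA/Citra (log2 2.12 ± 0.19, adjusted p = 7.76e-06), while OVA/Citra against OVA was not called (log2 0.33 ± 0.19, adjusted p = 0.068; 95% interval -0.10 to 0.75). Without OVA replicate 2 (adjusted p = 0.0397) or OVA/Citra replicate 1 (adjusted p = 0.0239) that difference was called higher.

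**Figure D2:**
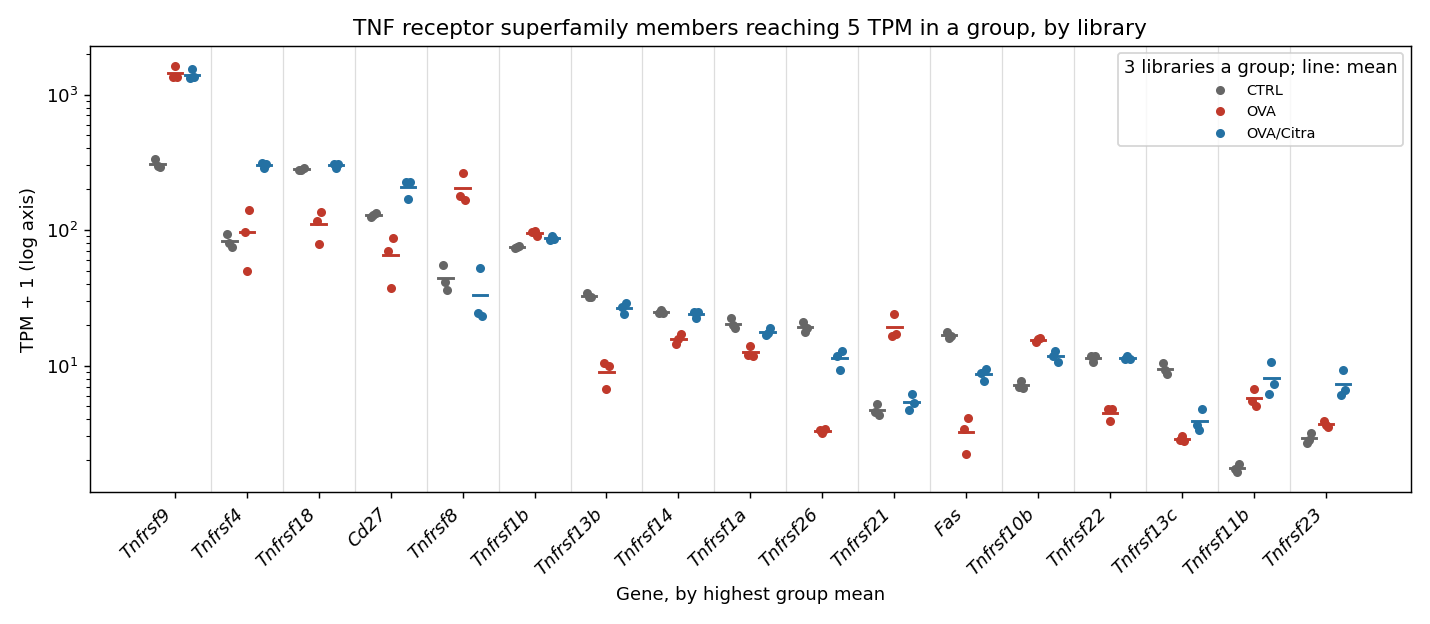
Level of the receptors that reached a mean of 5 TPM in a group, as TPM + 1 on a log axis, with 1 point per library and a line at the mean, for CTRL, OVA and OVA/Citra. Tnfrsf9 is the highest in every library, Tnfrsf8 and Tnfrsf21 are highest in OVA, and Tnfrsf4 is highest in the 3 OVA/Citra libraries.

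The 10 members that were not tested were at or near 0. Tnfrsf17 was listed at 0 in all 9 libraries, and Tnfsf18 and Tnfsf15 were above 0 in 1 library each, at 0.0836 and 0.0497 TPM. Tnfrsf25, death receptor 3, had 11, 8 and 9 reads in CTRL, 0 in each OVA library and 2, 4 and 5 in OVA/Citra. Against a floor of 3 reads over the OVA group, CTRL was at least 9.93-fold higher and OVA/Citra at least 3.92-fold higher. These bounds take the 28 reads over CTRL and the 11 over OVA/Citra as exact, so counting error could lower them. Ltbr, the lymphotoxin beta receptor, had 9 reads over CTRL, 36 over OVA and 41 over OVA/Citra. The others were Tnfrsf11a (RANK) with 8, 17 and 15 reads, Cd40 with 0, 4 and 7, Tnfrsf19 with 0, 9 and 6, Tnfsf13 with 0, 2 and 5, and Tnfsf13os with 0, 9 and 2. None of these 10 exceeded 1.29 TPM in any library.

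**Figure D3:**
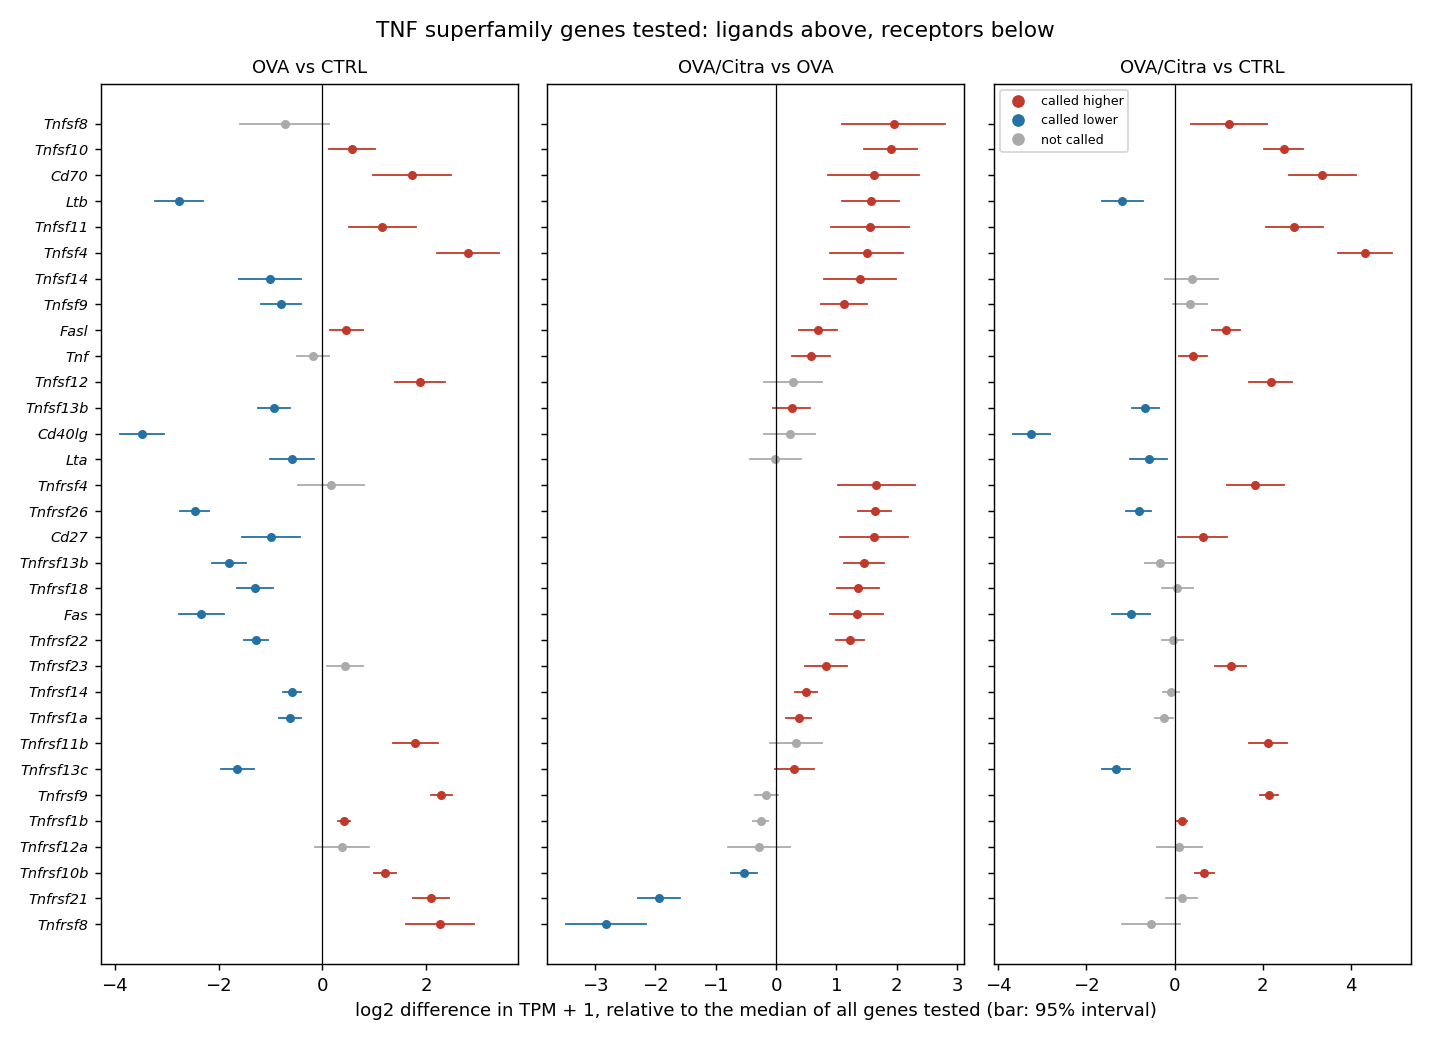
Log2 difference in TPM + 1 of each tested member in the 3 comparisons, relative to the median of all genes tested, with 95% intervals and colours for called higher, called lower and not called. In OVA/Citra against OVA 22 of the 32 members are called higher, and Tnfrsf8, Tnfrsf21 and Tnfrsf10b are the 3 called lower. Calls were made before the median was subtracted, so in that comparison the intervals of Tnfsf13b and Tnfrsf13c cross 0 although both were called higher.

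By the test against both other groups, OVA/Citra was highest for 10 of the 32 members and lowest for 0, where 12.6% and 5.31% of all tested genes were. The 10 were the ligands Tnfsf4, Fasl, Tnfsf10, Tnfsf8, Tnfsf11, Tnf and Cd70 and the receptors Tnfrsf4, Cd27 and Tnfrsf23. Over the alternative settings the number was 7 to 12, and it was lowest without CTRL replicate 2, when Cd27, Tnf and Tnfsf8 dropped out.

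Ligands and their receptors were set side by side in 27 pairs, of which 18 had both members tested. With OVA, both members rose in 3 pairs, both fell in 4, and they moved in opposite directions in 5. Opposite calls included Fasl up with Fas down, Cd70 up with Cd27 down, and Tnfsf9 down with Tnfrsf9 up. In OVA/Citra against OVA both were higher in 9 pairs and both lower in 0, and 2 pairs went opposite ways: Tnfsf10 was higher with Tnfrsf10b lower, and Tnfsf8 higher with Tnfrsf8 lower. In Tnfsf4 with Tnfrsf4, in Cd70 with Cd27 and in Tnfsf10 with Tnfrsf23, ligand and receptor both exceeded both other groups in OVA/Citra. Counted singly, 11 of the 14 tested ligands and 11 of the 18 tested receptors were higher in OVA/Citra than in OVA. Whether ligand and receptor moved together more often than these separate counts give was not tested. Several pairs share a gene and are not independent.

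Many members lie beside each other in the genome. In the gene order of RefSeq (GRCm38.p6) 12 pairs of members had no other protein-coding gene between them, and 8 of these pairs had both genes tested. These were Ltb with Tnf, Tnf with Lta, Tnfsf9 with Cd70, Cd70 with Tnfsf14, Tnfrsf1b with Tnfrsf8, Tnfrsf4 with Tnfrsf18, Tnfrsf26 with Tnfrsf22 and Tnfrsf22 with Tnfrsf23. In OVA against CTRL 2 of the 8 pairs were called the same way and 2 opposite ways, where 31.6% and 22.4% of all 6684 adjacent pairs of tested genes were. In OVA/Citra against OVA 6 were called the same way and 0 opposite ways (24.7% and 14.1% of all pairs), and in OVA/Citra against CTRL 0 and 2 (23.5% and 14.3%). Counted singly, 22 of the 32 tested members were higher in OVA/Citra than in OVA, against 37.8% of all tested genes. Pairs of members therefore share a direction more often than pairs of other genes, also where they are not neighbours. Several pairs share a gene, and the difference from all pairs was not tested. Of the 3 neighbours Ltb, Tnf and Lta, the first 2 were called higher with citraconate and Lta was not.

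Downstream of the receptors, a list of 30 genes for TRAF and death domain signalling, NF-kB control and ligand shedding was tested in full. With OVA 11 rose and 10 fell (32.1% and 39.8% of all tested genes), with a median difference of -0.01. In OVA/Citra against OVA 15 were higher and 7 lower (37.8% and 21.2% of all tested genes), with a median of 0.04, and under the median of ratios 14 and 10. In OVA/Citra against CTRL 14 were higher and 6 lower (33.1% and 26.3% of all tested genes), with a median of 0.19. In the first 2 of these comparisons the median of this list was near that of all genes. The tested ligands had a median of 1.26 in OVA/Citra against OVA.

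Tnfaip3 encodes A20, a ubiquitin-editing enzyme that restrains NF-kB. It had the largest increase of the list with citraconate. It was at 60.2, 50.1 and 57.0 TPM in CTRL, 46.9, 41.3 and 58.1 TPM in OVA, and 142, 132 and 124 TPM in OVA/Citra, with every OVA/Citra library above every other (log2 1.31 ± 0.12, adjusted p = 1.12e-05). Tnip1, a partner of A20, had instead the largest rise with OVA. It was at 98.9, 95.7 and 86.9 TPM in CTRL, 183, 197 and 214 TPM in OVA, and 184, 202 and 175 TPM in OVA/Citra (log2 1.14 ± 0.08, adjusted p = 9.03e-07), and OVA/Citra against OVA was not called (log2 -0.20 ± 0.08, adjusted p = 0.388). Under the median of ratios Tnip1 was called lower there. Tab2, an adaptor of the kinase TAK1, had the largest fall with OVA, from 95.5 ± 4.72 to 47.1 ± 1.83 TPM (log2 -0.93 ± 0.05, adjusted p = 1.61e-07), and was at 45.3 ± 0.404 TPM in OVA/Citra. Map3k14, the NF-kB-inducing kinase of the noncanonical pathway, had the largest decrease with citraconate, from 7.04 ± 0.593 to 4.72 ± 0.417 TPM (log2 -0.62 ± 0.12, adjusted p = 0.00495). Otulin, a deubiquitinase of linear chains, was at 94.2 ± 1.87, 119 ± 6.48 and 124 ± 9.06 TPM in CTRL, OVA and OVA/Citra and rose with OVA (log2 0.41 ± 0.06, adjusted p = 0.000763).

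Other genes of the list were looked at after their values were seen. The 7 lower in OVA/Citra than in OVA were Map3k14, Cflar, Ripk1, Casp8, Tab1, Tradd and Traf2. Cflar, the caspase-8 inhibitor cFLIP, had a difference of log2 -0.58 ± 0.10, adjusted p = 0.00348, and Casp8, the initiator caspase, of log2 -0.52 ± 0.07, adjusted p = 0.000745. Fadd, the adaptor that joins caspase-8 to Fas, was higher with citraconate (log2 0.33 ± 0.10, adjusted p = 0.00316). Traf5 (log2 1.17 ± 0.12, adjusted p = 2.79e-05) and Birc2 (log2 0.79 ± 0.09, adjusted p = 2.28e-05), which act at TRAF-binding receptors, were higher with citraconate.

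**Figure D4:**
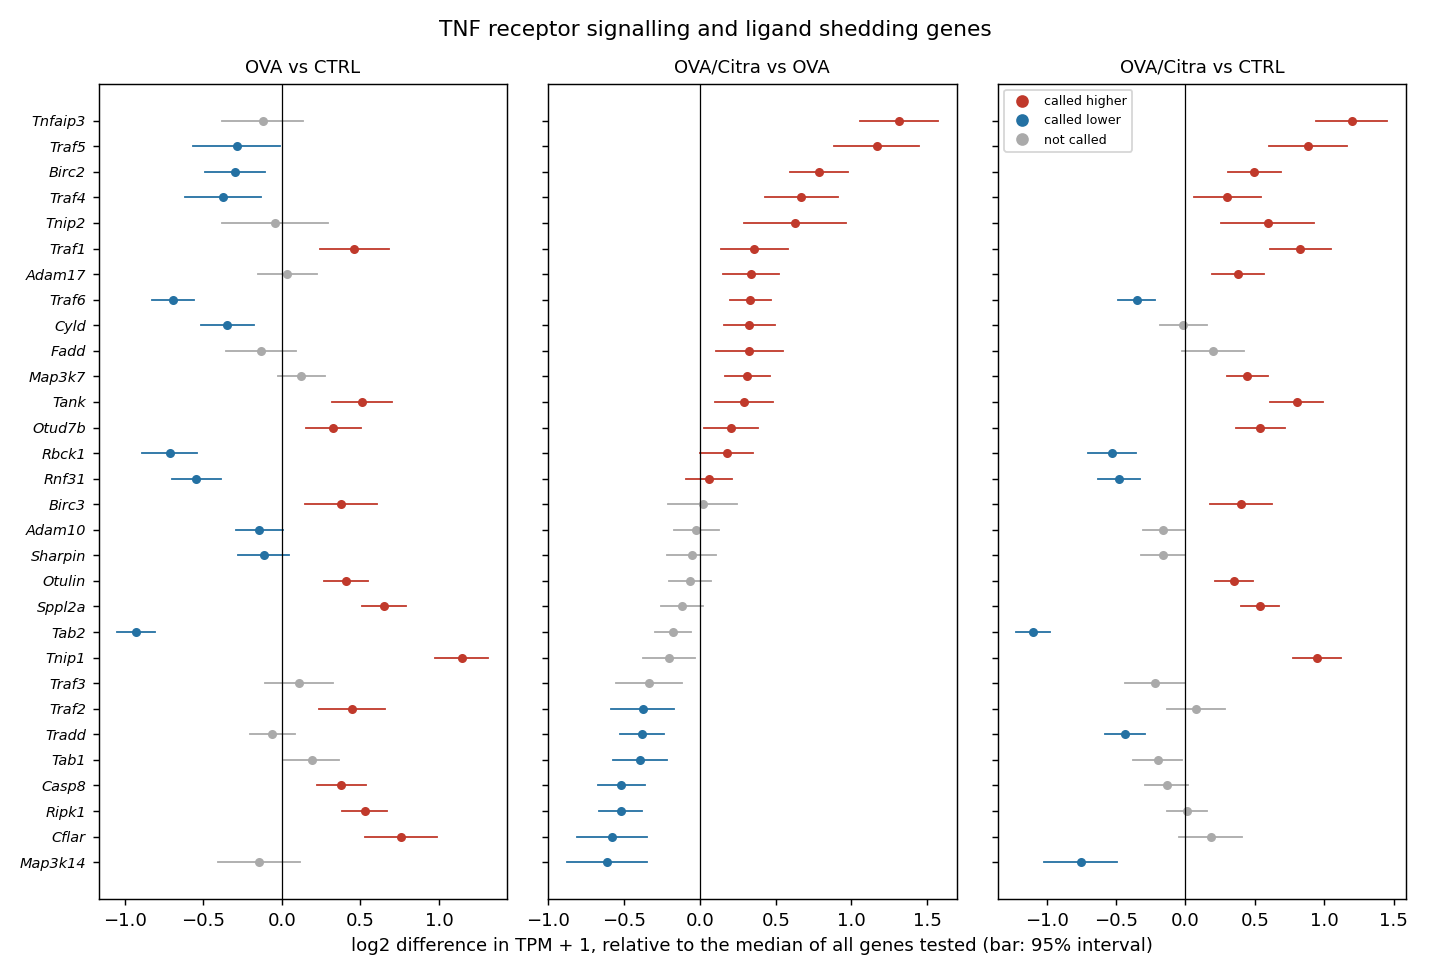
Log2 difference in TPM + 1 of the 30 genes of TNF receptor signalling and ligand shedding in the 3 comparisons, relative to the median of all genes tested, with 95% intervals. Tnfaip3 is the highest in OVA/Citra against OVA, and Map3k14 the lowest.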

How the data were processed

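The authors deposited a table with 1 column of TPM values per library and genes named by symbol. The file is named for FPKM, but every column sums to 1000000. Trim Galore 0.5.0, Salmon and the mouse genome GRCm39 were used, per the submitters' processing notes. No annotation is named in the sources used here. RNeasy Mini columns and a NextSeq instrument were used, per the labels' protocols. The sources used here do not say how reads of close paralogs were divided, so their levels are uncertain.

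Whole reads were recovered from the TPM values for 16734 of 16734 genes above 0 in at least 2 libraries (100%, within 0.0001 reads or 3e-08 of the count) and gave the depth per library. The smallest whole numbers that matched were taken, so the reads of sparse genes are the lowest that match. For genes above 0 in few libraries a match was almost sure to be found, so the 100% is no check of those. The recovered reads were fitted with voom in 1 alternative.

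The fit used log2(TPM + 1) of the genes whose mean reached 1 TPM in a group, and ran over all 9 libraries in limma 3.58.1 (R 4.3.3) with a trended prior, for 3 comparisons, two-sided, with Benjamini-Hochberg adjustment over the 11971 genes tested in each. The fit was tested on simulated data. Members were given by library where a group mean reached 5 TPM. From the list of 30 pathway genes, the 2 most abundant and the largest called increase and decrease with OVA and with citraconate were described. Members and lists were chosen with earlier results of these data known, and no list was tested as a set. Alternatives were a pseudocount of 0.1, no filter, the median of ratios, a replicate block, recovered reads and leaving out each library. The block was an alternative only, because the replicate numbers are not stated to mark shared animals or days. A marker gene of the B cell list is not reported here and was left out of its sum.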

Additional observations from a re-analysis of the deposited data

How the results depend on the processing

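Under 14 alternatives, the number of members called higher was 10 to 13 for OVA against CTRL, 20 to 23 for OVA/Citra against OVA and 12 to 16 for OVA/Citra against CTRL. The number called lower was 15 to 17, 3 to 4 and 6 to 8. Of the 96 differences of single members, 68 kept sign and side of the threshold under every alternative and 22 crossed the threshold under at least 1. A change of sign was found for 7, in 0 cases with a call, and the cause was not tested. Before subtraction of the median, these log2 values were -0.02 under the median of ratios and -0.091 to 0.23 without single libraries for Lta in OVA/Citra against OVA, and 0.012 with recovered reads and -0.055 to 0.019 without single libraries for Tnfrsf22 in OVA/Citra against CTRL. Without single libraries they were -0.10 to 0.051 for Tnfrsf9 and -0.36 to 0.031 for Tnfrsf12a in OVA/Citra against OVA, -0.048 to 0.33 for Tnfrsf12a and -0.076 to 0.004 for Tnfrsf14 in OVA/Citra against CTRL, and -0.25 to 0.50 for Tnfrsf4 in OVA against CTRL. With the replicate number as a block, 12 members were higher and 16 lower in OVA against CTRL, 21 and 3 in OVA/Citra against OVA, and 15 and 7 in OVA/Citra against CTRL. The block changed 2 calls: Tnfsf8 in OVA against CTRL passed the threshold (limma adjusted p = 0.0373), and Tnfsf13b in OVA/Citra against OVA did not (limma adjusted p = 0.0563). Deviations of same-numbered libraries correlated between -0.012 and 0.304, and those of differently numbered libraries between -0.254 and 0.168. The pairs of replicate 2 (0.081, 0.103 and 0.304) were each above every pair of those libraries with another number. Not every library correlated best with its own number, and the libraries were taken to share only a number. Groups of 3 are too small for a check of single outlying libraries, and members with few reads, such as Cd70 and Tnfrsf25, are limited by depth.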
